A study of Mus musculus with 4 samples.

Results

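The Hes and Hey genes encode transcription repressors with a basic helix-loop-helix domain, and 7 of them, Hes1, Hes3, Hes5, Hes6, Hey1, Hey2 and Heyl, are described here out of 54532 genes in the count table. They were taken by gene symbol, and all 7 were among the 19207 genes that passed the filter on low counts. RNA came from cranial neural tubes dissected at embryonic day 10.5. The 2 Control libraries came from mouse embryos without the transgene E2f1 Tg(Wnt1-cre)2Sor. The 2 DCKO libraries came from embryos that were Lats1 flox/flox and Lats2 flox/flox and carried a single copy of that transgene (Tg(Wnt1-cre)2Sor/+). In it, Wnt1 regulatory sequences drive Cre in cells that include those of the dorsal neural tube and neural crest. Only cells with Cre activity and their descendants can lose the Hippo kinases Lats1 and Lats2, so the dissected tissue also held cells that keep them. Whether Control embryos carried floxed alleles, and whether a library is 1 embryo or a pool, is not given in the sources used here.

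When Notch on a cell is bound by a ligand of a neighbour, its inner part enters the nucleus, joins the DNA-binding protein RBPJ and switches on Hes and Hey genes. Hes1, Hes3 and Hes5 then repress proneural genes such as Neurog2, which keeps neuroepithelial cells as dividing progenitors. Hes6 acts the other way: it is made by cells that enter neuronal differentiation and counteracts Hes1. Hey1, Hey2 and Heyl are best known from blood vessels and heart, and Hey1 and Hey2 are also made by neural progenitors.

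The groups differed in more than the targeted genes. Libraries held between 41798361 and 55137810 counts, and a floor of 3 counts corresponded to 0.0479 to 0.0812 CPM, the depth-scaled unit of counts. Of the targeted genes, Lats1 stood at 44.2 and 65.6 CPM in Control against 30.02 and 29.7 in DCKO (edgeR adjusted p 0.0538). Lats2 stood at 26.7 and 13.3 against 21.2 and 35.3 CPM (0.426), so its groups overlapped; counts over whole genes need not drop when exons are removed. Xist, made from an inactive X chromosome, reached 10837 and 7786 counts in Control against 8 and 22 in DCKO, so the sex of the embryos and their genotype cannot be told apart, nor can the Cre transgene and the deletion. All 10 markers of neural progenitors were detected in every library, with at least 171 counts. Of markers of other cell types, 10 of 12 tested surface ectoderm, 7 of 11 cranial mesenchyme and 3 of 8 neural crest genes were higher in DCKO. Their summed levels were 17.5 and 30.4 against 368 and 484 CPM for surface ectoderm, 229.9 and 266 against 1400.5 and 727 for mesenchyme, and 100.4 and 98.7 against 176 and 249.6 for neural crest. Krt5, which defines stratified surface epithelium, was at 0 in both Control libraries. Of 10 erythroid genes 7 were lower, and their sum was 2542 and 3774 against 893 and 658 CPM. Of 8 macrophage genes 0 passed in edgeR, DESeq2 or limma-voom, with 0 at an unadjusted p under 0.05 in edgeR. Without DCKO 2, however, 4 were higher, and their median log2 fold change of 0.85 became 1.43, or -0.40 without DCKO 1. Several of these counts rest on both Control libraries. The same holds over all tested genes: without either Control library, far fewer genes were called in either direction. A call lost in those fits is therefore not particular to a list or a gene. Without Control 1 or Control 2, the higher calls numbered 8 and 6 for surface ectoderm, 0 and 1 for mesenchyme and 0 and 0 for neural crest, and the lower erythroid calls 5 and 1. Neural crest had 6 higher calls without DCKO 1. The part of these cells in the values below was not tested.

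The 7 genes did not move as a block. Hes5 and Hes6 were lower in DCKO and passed the threshold, an adjusted p under 0.05 in edgeR's quasi-likelihood test over all tested genes. Hes3 had a large fitted decrease that did not pass, and Hes1, Hey1, Hey2 and Heyl did not pass either. Thus 2 of 7 members were called lower, against 8.11% of all tested genes, and 0 were called higher, against 8.93%. No member had an unadjusted p under 0.05 in the higher direction in edgeR, and 0 were called higher by DESeq2 or limma-voom. The groups did not overlap for 5 of 7 members, which is near the 66.4% of all tested genes for which they did not. They were apart with DCKO lower for 4 of 7, against 32.9% of tested genes. The median log2 fold change was -0.40 over the members and 0.03 over all tested genes.

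**Figure D1:**
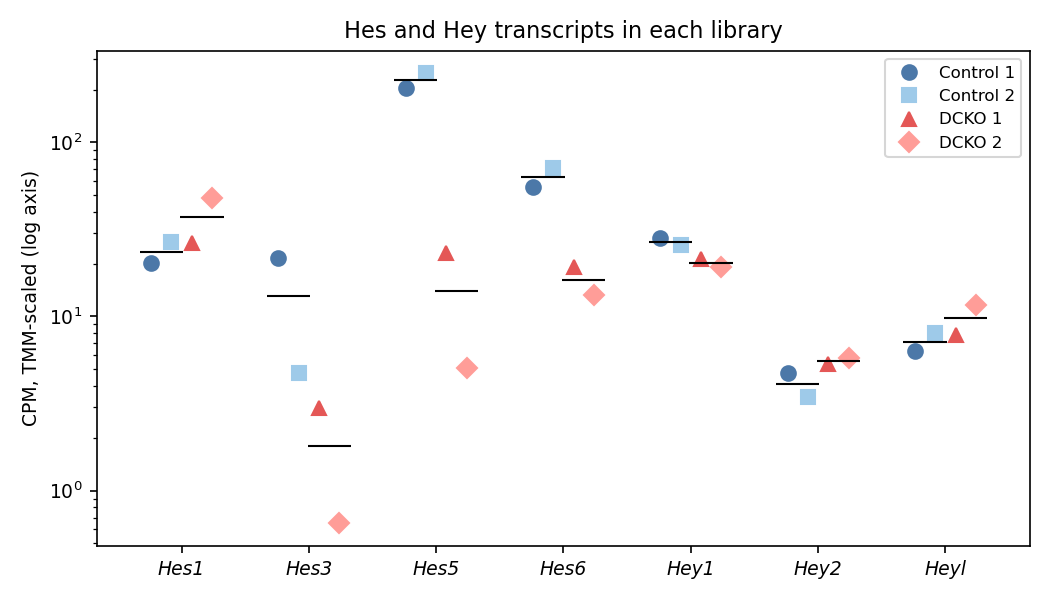
CPM of each gene in the 4 libraries, on a log axis and scaled by the trimmed mean of M values; points are libraries and black lines the group means. Hes5 and Hes6 lie lower in both DCKO libraries, Hes3 spreads widely within each group, and Hes1 and Heyl overlap between groups.

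Hes5 (ENSMUSG00000048001) lies on the plus strand of chromosome 4, from 154960923 to 154962371 on GRCm38, and has up to 3 exons. It is the Notch effector most typical of the neural tube. Control libraries held 12930 and 12629 of its counts and DCKO libraries 924 and 188, which is 206 and 249.6 CPM against 23.1 and 5.09. The Control libraries were close to each other and both DCKO libraries were far below them, with DCKO 1 above DCKO 2 by 4.54-fold. The mean went from 228 ± 30.5 to 14.1 ± 12.7 CPM (SD, n = 2 each), a log2 fold change of -4.01 (SE 0.72, edgeR adjusted p 0.0240) and a fold of 16.2 with a 95% interval of 4.66 to 56.1. Among the 19207 tested genes, 105 or 0.547% had a fitted log2 fold change at or below that of Hes5, itself included. The size depended on the DCKO library: it was -5.49 without DCKO 1 and -3.31 without DCKO 2. The call was lost without Control 1 (-4.15) and without Control 2 (-3.90). In those fits the unlike DCKO pair is the only pair within a group, and edgeR also draws on the spread of other genes. The predicted gene Gm20421 overlaps Hes5 on the opposite strand, and whether counting used strand is not stated, so reads of the pair cannot be assigned with certainty. Gm20421 itself was given 203 and 245 counts in Control against 55 and 10 in DCKO, far fewer than Hes5.

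The stretch just before the transcription start is shown for Hes5, Hes6 and Hey2, from RefSeq promoter windows on GRCm38.p6. These were the 3 members with a window in the sources used here. The motifs searched on both strands were TGGGAA, the core of the RBPJ site, CATTCC, the core of the TEAD site through which YAP and TAZ act, and CACGAG and CACGCG, sites that Hes and Hey proteins bind. The Hes5 window is chr4:154960673-154960922 on the plus strand, printed 5′ to 3′ toward the gene with TGGGAA or its reverse complement in capitals.
Hes5: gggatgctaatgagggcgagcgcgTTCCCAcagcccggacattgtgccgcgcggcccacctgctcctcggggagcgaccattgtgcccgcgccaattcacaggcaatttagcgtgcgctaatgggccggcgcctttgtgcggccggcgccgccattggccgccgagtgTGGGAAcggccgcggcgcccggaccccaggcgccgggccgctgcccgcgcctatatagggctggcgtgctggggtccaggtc
The window holds TGGGAA at bases -82 to -77 from the start site and its reverse complement at -226 to -221. Of 32851 RefSeq windows of the same length, 21.6% hold TGGGAA on either strand. The other motifs have no match in these letters, and they are found in 12.6% (CATTCC), 5.37% (CACGAG) and 7.62% (CACGCG) of the windows.

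Hes6 (ENSMUSG00000067071; chromosome 1, minus strand, 91411483 to 91414038) has up to 4 exons and overlaps no other gene. Its level was 55.4 and 71.6 CPM in Control against 19.3 and 13.3 in DCKO. The groups stood well apart, and the DCKO libraries were closer to each other than for Hes5. The mean went from 63.5 ± 11.4 to 16.3 ± 4.25 CPM (SD, n = 2 each), a log2 fold change of -1.96 (SE 0.25, edgeR adjusted p 0.0126) and a fold of 3.90 with a 95% interval of 2.51 to 6.05. The call held without Control 1 (-2.14, adjusted p 0.0444), DCKO 1 (-2.26, 0.00301) or DCKO 2 (-1.72, 0.00662), and was lost without Control 2 (-1.80, 0.0680). RefSeq gives Hes6 a pair of start sites, and the windows of both are shown. They are chr1:91414039-91414288 and chr1:91413223-91413472 on the minus strand.
Hes6 upstream start: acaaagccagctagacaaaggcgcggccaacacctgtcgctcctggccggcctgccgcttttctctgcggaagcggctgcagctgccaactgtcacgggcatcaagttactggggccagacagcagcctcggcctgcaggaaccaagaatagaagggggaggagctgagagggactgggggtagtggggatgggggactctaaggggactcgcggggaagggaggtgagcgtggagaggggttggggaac
Hes6 downstream start: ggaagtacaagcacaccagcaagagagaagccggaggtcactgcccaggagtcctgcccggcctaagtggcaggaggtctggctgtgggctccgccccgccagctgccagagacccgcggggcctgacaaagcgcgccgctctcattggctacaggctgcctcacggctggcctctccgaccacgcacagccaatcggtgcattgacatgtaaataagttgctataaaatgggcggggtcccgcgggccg
Neither stretch holds any of the 4 motifs, so no letters are in capitals; these windows say nothing of sites elsewhere.

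Hes3 (ENSMUSG00000028946; chromosome 4, minus strand, 152285972 to 152291662), which keeps progenitors at the midbrain-hindbrain boundary together with Hes1, was the most variable member. It was counted 1354 and 239 times in Control against 119 and 24 in DCKO, or 21.6 and 4.72 CPM against 2.97 and 0.650. Both DCKO libraries were below both Control libraries, yet Control 1 exceeded Control 2 by 4.58-fold, and only 1.04% of tested genes had a Control gap that wide. The log2 fold change of -2.86 (SE 0.97) had an edgeR adjusted p of 0.0973 and a 95% interval from -5.27 to -0.44. Leaving out Control 1 gave -1.38 (edgeR adjusted p 0.444) and leaving out Control 2 gave -3.60 (0.0913). Leaving out DCKO 1 gave -4.35, which passed (0.0333), and leaving out DCKO 2 gave -2.15 (0.127). In the authors' deposited table Hes3 had a log2 fold change of -2.79 and a false discovery rate of 0.00138, while Hes5 had -3.96 and 3.1e-11 and Hes6 -1.91 and 1.72e-08.

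Markers of the boundary region also differed between the Control libraries. Of 10 such genes, 9 were higher in Control 1, with ratios of Control 1 to Control 2 between 0.952 for Otx2 and 2.27 for Fgf17. The engrailed genes En1 and En2, which mark the region, had ratios of 1.99 and 1.72. Hes3 was also 4.58-fold higher in DCKO 1 than in DCKO 2, a gap reached by 3.09% of tested genes. The boundary markers went both ways there, with ratios of DCKO 1 to DCKO 2 from 0.486 for Pax2 to 6.20 for Fgf17. The summed level of the 10 markers was 340 and 213 CPM in Control against 310 and 244 in DCKO. The groups thus overlapped for the summed list while they did not for Hes3. Taken singly, 5 of the 10 markers also had groups that did not overlap, against 66.4% of all tested genes. In DCKO, 1 of the 10 was higher (Otx2, of forebrain and midbrain) and 1 lower (Pax2), with a median log2 fold change of -0.17. Leaving out Control 1 made that median 0.43 and leaving out Control 2 made it -0.63. Leaving out DCKO 1 gave -0.29 and leaving out DCKO 2 gave 0.12, so its sign is not settled. Both calls were lost without Control 1 or Control 2 (edgeR adjusted p 0.142 and 0.134 for Otx2, 0.0702 and 0.0715 for Pax2). Without DCKO 1 the list had 1 higher and 3 lower calls, and without DCKO 2 it had 3 and 1. How far the part of the tube that was dissected bears on Hes3 was not tested.

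Hes1 (ENSMUSG00000022528; chromosome 16, plus strand, 30064384 to 30067796) is a Notch target and also answers other signals in many tissues. It measured 20.2 and 26.9 CPM in Control against 26.6 and 47.8 in DCKO. DCKO 1 lay between the Control libraries and DCKO 2 lay above them, so the groups overlapped. The log2 fold change of 0.66 (SE 0.32, edgeR adjusted p 0.201) had a 95% interval from -0.14 to 1.46. The value rests on DCKO 2: without DCKO 1 it was 1.02 and passed (adjusted p 0.0237), and without DCKO 2 it was 0.17 (0.607).

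Hes5 lost ground against Hes1 within each DCKO library. The log2 ratio of their counts, which is not per length and is read only for its difference between libraries, was 3.35 and 3.22 in Control against -0.20 and -3.23 in DCKO. The difference between the group means was -5.002, with no overlap, and -3.49 without DCKO 2 or -6.52 without DCKO 1. With 2 libraries per group, an exact permutation test cannot give a two-sided p below 0.333, so this ratio is given without a test.

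None of the 3 Hey genes passed. Hey1 (ENSMUSG00000040289; chromosome 3, minus strand, 8663359 to 8667256) stood at 28.2 and 25.7 CPM in Control against 21.4 and 19.3 in DCKO. The groups did not overlap and the replicates were close, and the log2 fold change was -0.40 (SE 0.17, edgeR adjusted p 0.162, 95% interval from -0.84 to 0.03). It passed when libraries were scaled to their totals (-0.75, adjusted p 0.0324), a scaling that moves the median of all genes by -0.35.

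Hey2 (ENSMUSG00000019789, chromosome 10, minus strand, 30832359 to 30842801), a transcription repressor with roles in arterial and heart development, stood at 4.74 and 3.46 CPM in Control against 5.32 and 5.79 in DCKO. Both DCKO libraries were slightly above both Control libraries, with a log2 fold change of 0.44 (SE 0.31, edgeR adjusted p 0.354, 95% interval from -0.33 to 1.20). Heyl (ENSMUSG00000032744; chromosome 4, plus strand, 123233556 to 123249875), a Notch target of vascular smooth muscle, had 6.29 and 8.02 CPM against 7.87 and 11.7. Its groups overlapped, and its log2 fold change was 0.45 (SE 0.30, edgeR adjusted p 0.328, 95% interval from -0.29 to 1.19). These intervals leave room for a change of more than 2-fold upward in either gene. Scaled to library totals, Hey2 had 0.09 and Heyl 0.10. Hey2 was 0.68 without Control 1 and 0.20 without Control 2. Heyl was 0.28 with Control 1 left out, 0.70 with DCKO 1 left out and 0.14 with DCKO 2 left out. No such value passed.

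The Hey2 stretch is chr10:30842802-30843033 on the minus strand, which stops before the first exon of the GENCODE annotation.
Hey2: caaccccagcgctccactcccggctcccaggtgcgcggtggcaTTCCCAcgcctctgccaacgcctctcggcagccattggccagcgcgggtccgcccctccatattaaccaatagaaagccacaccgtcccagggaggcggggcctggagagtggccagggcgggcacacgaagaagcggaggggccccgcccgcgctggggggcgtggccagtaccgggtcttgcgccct
The capitals mark the reverse complement of TGGGAA at -207 to -202 from the RefSeq start site. A TEAD core, CATTCC, lies at -209 to -204 and shares 4 bases with it. A match of letters does not show that a factor binds there. On either strand, TGGGAA is held by 21.6% of RefSeq windows and CATTCC by 12.6%.

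Markers of vessels, in which Hey genes are also expressed, had higher summed levels in both DCKO libraries. The 14 endothelial markers summed to 207 and 191 CPM in Control against 911 and 533 in DCKO, with 8 higher, 0 lower (1 at an unadjusted p under 0.05 in edgeR, 0 in DESeq2 and limma-voom) and a median log2 fold change of 1.61. Kdr, the main VEGF receptor, went from 47.3 and 41.4 to 234 and 131 CPM. The arterial connexins Gja4 and Gja5, by contrast, had log2 fold changes of -0.99 and -0.33 and did not pass (edgeR adjusted p 0.122 and 0.575). The 10 mural markers, of which 6 of 9 tested were higher, summed to 52.8 and 49.2 CPM in Control against 469 and 677 in DCKO. Without Control 1 or Control 2, fewer endothelial and mural genes were called higher, as were fewer genes over the whole table. The median of the endothelial list was then 1.58 and 1.60. Without DCKO 2, 9 mural genes were higher. The part of these cells in the values of Hey1, Hey2 and Heyl was not tested. In RNA from whole tissue, fewer cells of a type and less RNA per cell cannot be told apart.

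**Figure D2:**
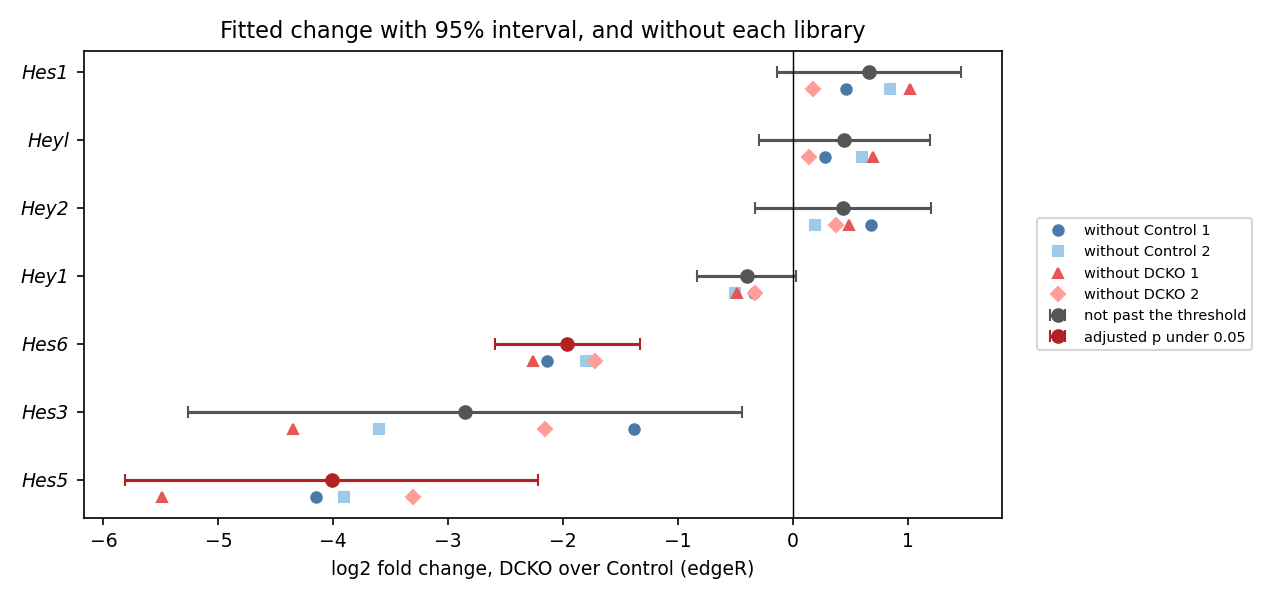
Fitted log2 fold change of each gene, DCKO over Control, with its 95% interval (large points; red for adjusted p under 0.05), and the same value without each library in turn (small points). Hes6 stays near -2, Hes5 spans -5.49 to -3.31, and Hes3 spans -4.35 to -1.38.

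Per length, the order of the genes changed. TPM, scaled for transcript length and depth, allow different genes to be set side by side within a library. In Control, Hes5 stood first at 309 and 307 TPM, Hes6 followed at 73.6 and 77.96, and Hes1 came next at 27.6 and 29.1. Hey1 had 22.1 and 17.1 TPM and Hes3 25.9 and 7.52, so these neighbours in the order are not separated by their spread. Heyl (2.59 and 3.33) and Hey2 (3.48 and 2.07) were lowest and overlapped. In DCKO 1, Hes5 at 27.3 and Hes1 at 25.7 TPM were about level, ahead of Hes6 at 16.99 and Hey1 at 12.5. In DCKO 2, Hes1 led at 54.6, followed by Hes6 at 14.8, Hey1 at 13.5 and Hes5 at 7.32.

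The summed TPM of the 7 genes was 464 and 444 in Control and 92.0 and 99.3 in DCKO. Hes5 supplied 66.5% and 69.1% of that sum in Control and 29.7% and 7.37% in DCKO. Hes1 supplied 5.96% and 6.56% in Control and 27.9% and 55.02% in DCKO. The share of Hes6 overlapped between the groups, at 15.9% and 17.6% against 18.5% and 14.9%. The loss of summed level was therefore made up mostly of Hes5, while the DCKO libraries, alike in their sum, differed in which gene supplied it.

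**Figure D3:**
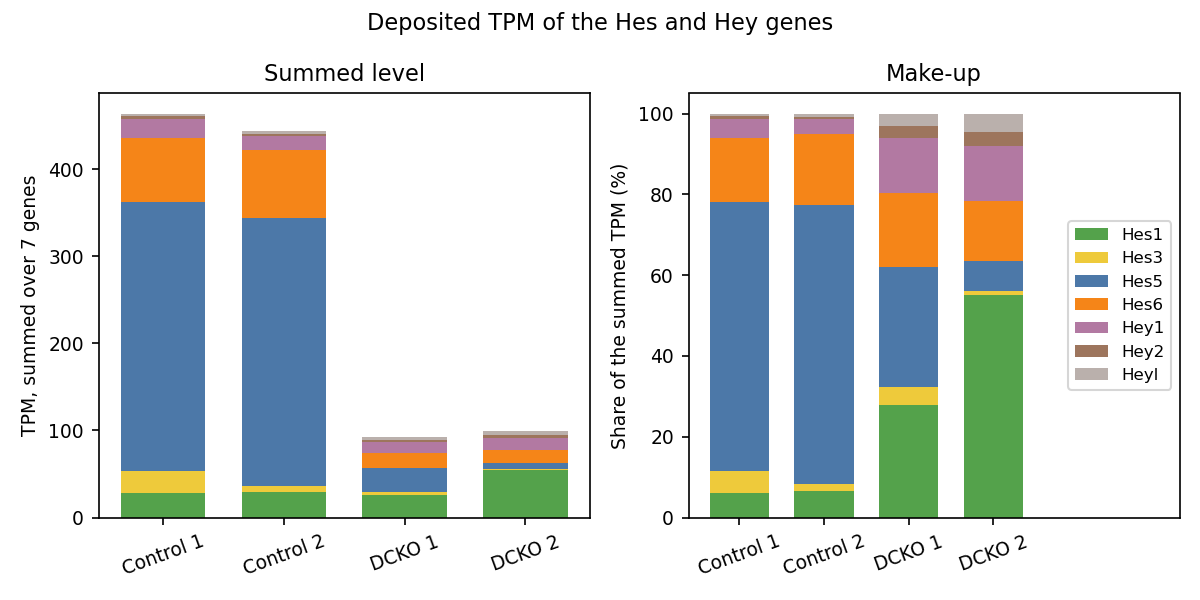
Deposited TPM of the 7 genes in each library, stacked as levels (left) and as shares of their sum in percent (right). The sum is 464 and 444 TPM in Control and 92.0 and 99.3 in DCKO, and the largest share passes from Hes5 in Control to Hes1 in DCKO 2.

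Many neural progenitor genes were lower in the same libraries. Of 10 progenitor markers, 6 were lower and 0 higher in edgeR, with a median log2 fold change of -1.15. In the higher direction 1 had an unadjusted p under 0.05, and DESeq2 called 1 and limma-voom 0. Their summed level was 3389 and 3730 CPM in Control against 2955 and 2455 in DCKO. Without Control 1 or Control 2 the lower calls numbered 3 each, with medians of -1.34 and -0.96. Sox3, of the SoxB1 factors that maintain neuroepithelium, stood at 145 and 139.6 CPM in Control against 21.4 and 16.5 in DCKO. Vim, which mesenchyme also expresses, stood at 862 and 995 CPM in Control against 1710 and 1301 in DCKO, without passing (edgeR adjusted p 0.0702). Of 10 neuron markers, 3 were lower and 0 higher in edgeR, with 0 at an unadjusted p under 0.05 in the higher direction and 0 in DESeq2 and limma-voom. They summed to 1196 and 1489 against 813 and 355 CPM. The neuron calls fell to 0 without either Control library and numbered 8 without DCKO 1 and 5 without DCKO 2. Whether the DCKO tissue held fewer progenitors and neurons, and what part that had in the lower Hes5 and Hes6, was not tested.

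Set against the summed counts of the 10 progenitor markers within each library, the log2 ratio of Hes5 was -4.04 and -3.90 in Control and -7.00 and -8.91 in DCKO. It fell by 3.99 between the group means. That of Hes6 fell by 1.57, from -5.93 and -5.70 to -7.26 and -7.53, and that of Hey1 overlapped between the groups. That of Hes1 was -7.39 and -7.12 in Control against -6.80 and -5.68 in DCKO, higher in both DCKO libraries. When the SoxB1 genes Sox1, Sox2 and Sox3 replaced the list, a choice made after the values were seen, the log2 ratio of Hes5 fell by 2.69, from -0.87 and -0.64 to -2.39 and -4.49. The ratio of Hes6 then overlapped between groups, at -2.76 and -2.44 in Control and -2.65 and -3.11 in DCKO. Those of Hes1, Hey1, Hey2 and Heyl were higher in both DCKO libraries than in both Control libraries. Sox1, Sox2 and Sox3 were themselves lower in DCKO, with log2 fold changes of -2.15, -0.89 and -2.91. A gene without a change of its own therefore rises relative to them. Hes3 was lower in both DCKO libraries relative to the list, by a difference of -2.46 between the means, and overlapped relative to the SoxB1 genes (-1.16). Hey2 and Heyl were higher relative to the list, by 0.86 and 0.83, with groups apart. Hes5 was thus lower relative to either set, while Hes3 and Hes6 were lower relative to the list and overlapped relative to the SoxB1 genes. Vim, higher in both DCKO libraries, made up more of the list sum in DCKO than in Control. A fall relative to the list is therefore not by itself a fall relative to progenitors. These ratios are descriptions without a test, since the markers were themselves among the genes that changed.

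**Figure D4:**
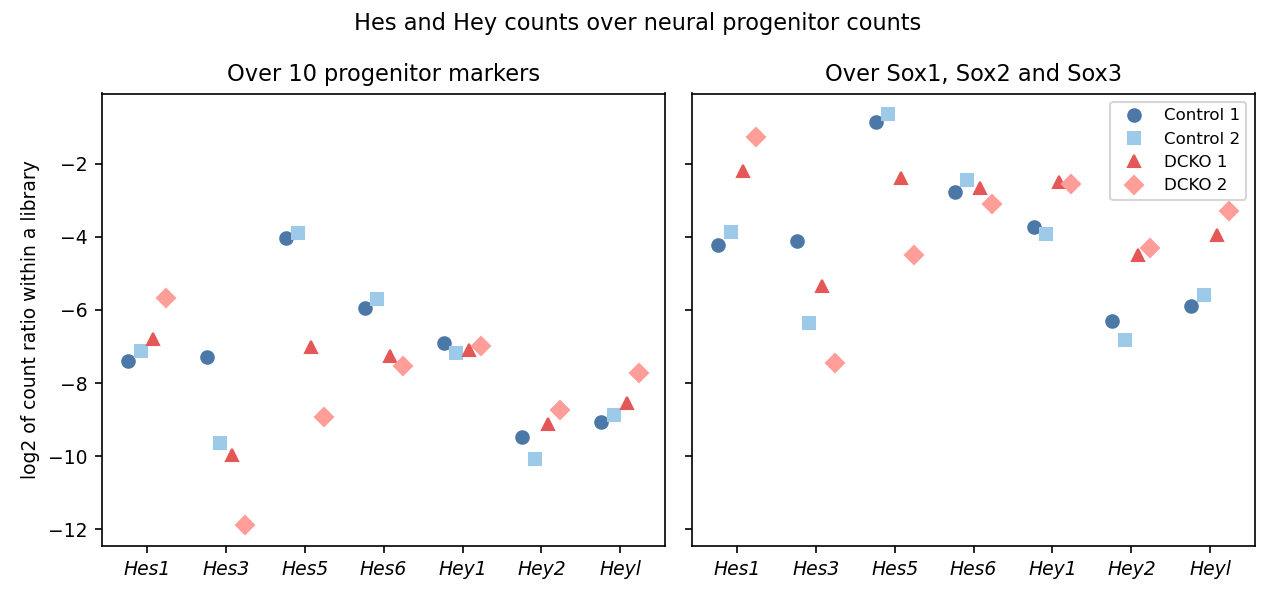
Log2 ratio of each gene's counts to the summed counts of 10 progenitor markers (left) or of Sox1, Sox2 and Sox3 (right) within each library; points are libraries. Hes5 lies lower in both DCKO libraries in both panels, whereas Hes6 overlaps between groups in the right panel.

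Upstream of the Hes and Hey genes, the Notch ligands were called in both directions. Dll1, the ligand made by newborn neurons and committed precursors, fell from 85.9 and 86.3 CPM in Control to 13.3 and 8.82 in DCKO (log2 fold change -2.96, SE 0.25, edgeR adjusted p 0.00684). Dll4, a ligand of endothelium, rose from 10.4 and 7.75 to 20.4 and 21.3 CPM (1.20, SE 0.23, adjusted p 0.0276), and Jag2 from 9.55 and 8.62 to 18.1 and 27.5 (1.33, SE 0.27, 0.0297). Of 5 ligands, 2 were higher and 1 lower, with a median of 0.71. Dll1 kept its call without any single library, whereas Dll4 had adjusted p-values of 0.110 and 0.196 and Jag2 0.151 and 0.184 without Control 1 and Control 2. Both higher calls were also lost with the replicate number as a block (0.0562 and 0.0584), and Dll4 did not pass on log2(TPM + 1) (0.0998) or log2(TPM + 0.1) (0.0983).

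Of 4 receptors, 2 were lower and 0 higher, with a median of -0.46. In the higher direction 1 had an unadjusted p under 0.05 in edgeR, and DESeq2 and limma-voom called 0. Notch1 fell from 256 and 277 to 121 and 118 CPM (log2 fold change -1.16, SE 0.15, edgeR adjusted p 0.0129) and Notch3 from 176 and 171 to 104 and 119 (-0.64, SE 0.16, 0.0481). Without Control 1 or Control 2 neither passed (0.0773 and 0.0921 for Notch1, 0.265 and 0.216 for Notch3), nor did Notch3 without DCKO 1 (0.0765). Among 18 modulators and processing genes, 3 were lower and 1 higher, with a median of -0.09 that turned to 0.03 without Control 2, 0.02 without either DCKO library, 0.06 with the replicate number as a block and 0.08 in limma-voom. Lfng, the fringe enzyme that tunes Notch to its ligands, fell from 72.9 and 62.3 to 9.12 and 12.6 CPM (-2.64, SE 0.23, adjusted p 0.00743). Mfng, a second fringe, and Pofut1, which fucosylates Notch, fell by 1.33 and 0.91 on the log2 scale, and the gamma-secretase subunit Ncstn rose by 0.70. These 3 calls were lost without Control 1 (edgeR adjusted p 0.0758 for Mfng, 0.273 for Pofut1 and 0.231 for Ncstn) and without Control 2 (0.169, 0.129 and 0.251). Without DCKO 1, Pofut1 (0.0678) and Ncstn (0.0513) did not pass. Lfng passed without any single library.

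In the nucleus, Rbpj itself stood at 113 and 94.9 CPM in Control against 80.9 and 121 in DCKO. Its groups overlapped, with a log2 fold change of -0.04 (edgeR adjusted p 0.915). Nrarp, a Notch target that feeds back on the pathway, fell from 46.4 and 48.9 to 7.67 and 5.30 CPM (-2.88, SE 0.24, adjusted p 0.00684), and passed without any single library. Of the 5 genes of this list, 1 was lower and 0 higher in edgeR, with 1 at an unadjusted p under 0.05 in the higher direction, 1 called higher by DESeq2 and 0 by limma-voom. Of 6 tested Groucho corepressors, through which Hes proteins repress, 1 was lower, Tle4 (-0.77, SE 0.19, adjusted p 0.0464), and 0 were higher, with 0 at an unadjusted p under 0.05 in that direction and 0 in DESeq2 and limma-voom. Tle4 did not pass without Control 1 (0.258), Control 2 (0.173) or DCKO 2 (0.0596), and without DCKO 1 the list had 3 lower calls.

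Most of the proneural genes, which Hes proteins are known to repress, fell as well. Of 12 listed, 10 were tested, 8 were lower and 0 were higher, with 0 at an unadjusted p under 0.05 in the higher direction and 0 in DESeq2 and limma-voom. Neurod6 was at 0 in all libraries. The median log2 fold change was -3.22, or -2.96 with Ptf1a, which had 0 counts in both DCKO libraries, at its bound. Neurog1 fell from 34.2 and 35.9 CPM in Control to 2.40 and 1.22 in DCKO (-4.27, SE 0.37, edgeR adjusted p 0.00734), and Neurod4 and Nhlh1 fell by 4.03 and 2.34 on the log2 scale. Hes5 and these genes were thus low in the same libraries. Leaving out Control 1 or Control 2 left 5 or 3 proneural genes called, and Nhlh1 did not pass without Control 2 (edgeR adjusted p 0.0513).

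Closely related repressors outside the 7 went both ways. Bhlhe40 and Bhlhe41, relatives that answer stress, hypoxia and the clock, rose from 2.44 and 3.68 to 67.0 and 109.3 CPM (log2 fold change 4.85, SE 0.36, edgeR adjusted p 0.00606) and from 1.61 and 1.44 to 18.3 and 39.8 (4.24, SE 0.44, 0.00883). Without Control 2, Bhlhe41 had an adjusted p of 0.0513. Hes2 stood at 1.52 and 1.52 CPM in Control with 0 counts in both DCKO libraries, at least 19.5-fold lower against a floor of 3 counts per library. It passed at an adjusted p of 0.0129, but not without Control 1 (0.0680) or Control 2 (0.0717). Hes2 lies 123.5 kb from Hes3 on chromosome 4. The 2 relatives that did not pass, named after their values were seen, were Helt, of midbrain progenitors (5.38 and 5.47 CPM against 0.500 and 0, adjusted p 0.0566), and Hes7, the somite clock gene (0 and 0.237 against 0.575 and 0.568, 0.260).

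**Figure D5:**
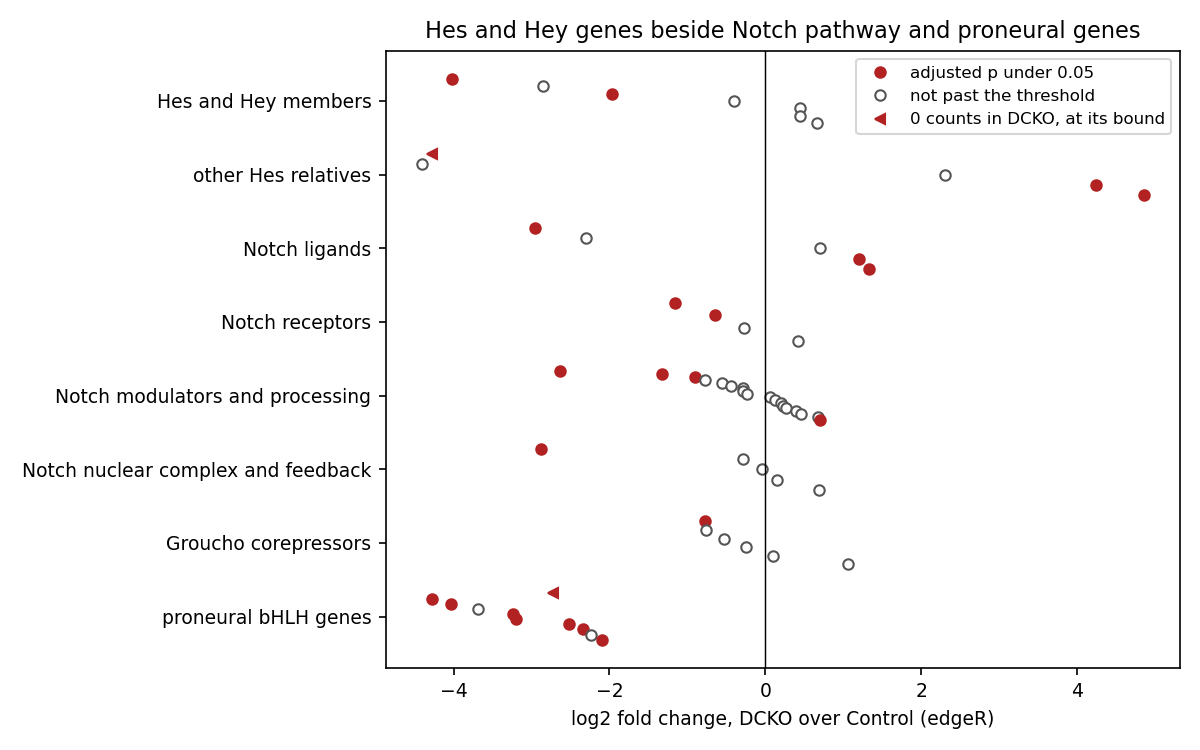
Fitted log2 fold change, DCKO over Control, of every tested gene in each list; each point is a gene, filled red where the adjusted p was under 0.05, and triangles are genes with 0 counts in DCKO, drawn at their bound. Proneural genes all lie left of 0, whereas ligands, receptors and modulators lie on both sides.

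The genes whose profiles over the 4 libraries were most like those of the members were found by the root mean square difference of centred log2 CPM among 11816 candidates. Nearest to Hes5 were Lzts1 at 0.273, Scrt1, a repressor of newborn neurons, at 0.340, and Dbx1 at 0.423 log2 units. Dbx1, a homeobox gene of progenitors midway along the dorsoventral axis, stood at 91.7 and 113 CPM in Control against 8.12 and 3.98 in DCKO. Nearest to Hes6 were Nat8f4 (0.00430), Particl (0.0290) and Bcl7a (0.0446). Hes3 had no close match, since Grik3, Pou3f3 and Shisa3 lay 0.660 to 0.732 away. Nearest to Hes1 were Ccng2, Rnf32 and Fzd2, to Hey1 Rab1a, Lix1l and Ppp4r4, to Hey2 Cnot6l, Nup160 and Ramp2, and to Heyl Rassf7, Ackr3 and Zbtb2, all within 0.0831 log2 units. Over 4 libraries such likeness is a description of these profiles only.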

How the data were processed

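The 7 genes and all gene lists were chosen with earlier results of these data known. The authors deposited counts per Ensembl gene, 1 column per library, and TPM per gene. They also deposited a table of log2 fold changes with p-values and false discovery rates, whose sign was checked against the counts. Per the submitters' processing notes, the tools included TopHat2 2.1.1, StringTie, edgeR 3.16.5, limma 3.30.13 and R 3.3.2, with builds mm10 and GRCm38; use of strand in counting is not stated. Symbols and positions are those of GENCODE M21 on GRCm38; 54409 of 54532 IDs had a symbol.

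Counts were tested with edgeR 4.0.16 in R 4.3.3 (filterByExpr with a minimum count of 10 and total of 15, TMM scaling, quasi-likelihood test with group as the only term, 2 residual degrees of freedom, two-sided, Benjamini-Hochberg adjustment over 19207 genes), and the method was tested on simulated data. CPM use TMM-scaled totals, and SE were derived from the F statistic. Libraries of a group differed by more than counting noise, but the labels number the samples without saying whether each is 1 embryo, a pool or from separate litters, so p-values measure the spread between these samples. Of each pathway list, up to 4 called genes by p-value, or else the gene with the smallest p, were named; marker examples, Rbpj, Vim and unpassed relatives were chosen after their values were seen. The values of 1 gene that this rule names are not reported here. Floors cover counting error only. Alternatives used DESeq2 1.42.0, limma 3.58.1, other scalings and filters, the TPM on a log2 scale, the replicate number as a block, and each library left out. The planned comparison of proteins was not made here.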

Additional observations from a re-analysis of the deposited data

How the results depend on the processing

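The 7 fold changes kept their sign under every alternative run. Calls changed as follows, and the cause was not tested. Hes3 passed on log2(TPM + 1) (-2.24) and log2(TPM + 0.1) (-2.70), and Hey1 passed with library totals (-0.75). On unfiltered log2(TPM + 1), limma called 0 genes higher and 0 lower (2387 and 4059 at an unadjusted p under 0.05), so Hes5 (-4.33) and Hes6 (-2.19) did not pass and 0 members were lower (3 unadjusted). Over all genes, 1716 were higher and 1558 lower in the main test, 1007 higher on log2(TPM + 1), 958 higher on log2(TPM + 0.1), 2678 lower with DESeq2, and 1219 higher and 3744 lower with library totals.

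Same-numbered libraries are not said to be related, and differences between numbers 1 and 2 did not correlate between the groups (r -0.03). With the number as a replicate block, 1002 genes were higher and 776 lower, and Hes3 passed (-2.86, adjusted p 0.0158). Of the 18 called pathway genes named, 11 kept their call under the block, and Dll4, Jag2, Notch3, Mfng, Ncstn, Pofut1 and Tle4 lost it. Progenitor markers called lower went from 6 to 4.

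Without each library in turn, log2 fold changes ranged from 0.17 to 1.02 for Hes1, -4.35 to -1.38 for Hes3, -5.49 to -3.31 for Hes5 and -2.26 to -1.72 for Hes6. Members called higher ranged from 0 to 1 and lower from 0 to 3, and genes from 155 to 2619 higher and 72 to 2565 lower. Without Control 1 or Control 2, fewer members were called lower than in the main test. Genes called over the whole table fell sharply in the same fits, so the lost calls are not particular to the members. Of the 18 called pathway genes named, 9, 7, 15 and 17 kept their call without Control 1, Control 2, DCKO 1 and DCKO 2; in such fits the lone library is assumed to vary like the other group. Against Sox1, Sox2 and Sox3 in place of the progenitor list, added after seeing the data, the change of log2 ratio was 2.31 rather than 1.01 for Hes1, -0.28 rather than -1.57 for Hes6 and 1.30 rather than 0.00 for Hey1. With 2 libraries per group, changes of moderate size such as those of Hes1 and the Hey genes may be missed.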
